A study of Mus musculus with 11 samples.

Results

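The genes described here are 43 DNA replication and S-phase genes, measured by RNA-seq in the thymocytes of 11 mice. They were taken from a fixed list of gene names, which was matched by GENCODE gene name to the count table, and all 43 were found among its 54418 genes. The mice were 4 wild-type (wt) mice, 4 Zmat3-/- mice and 3 Puma-/-p21-/-Zmat3-/- triple knockout (TKO) mice, all between 8 and 12 weeks old. The TKO mice lack Zmat3, an RNA-binding protein that TRP53 induces, together with Puma (gene Bbc3), a BH3-only protein that triggers apoptosis, and p21 (gene Cdkn1a), an inhibitor of cyclin-dependent kinases. Both knockout groups lack Zmat3, and the wt mice carry none of the 3 knockouts. The alleles are germline, so every cell in the thymus lacks the genes, and the labels give the RNA of each library as that of thymocytes, with no sort named. All 3 pairs of genotypes are compared here, and the question is whether the genes that cells use to copy their DNA differed between them.

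Before S phase, the origin recognition complex, Cdc6 and Cdt1 load the MCM2-7 helicase onto origins, which licenses them. Cdc45 and the GINS complex then join MCM2-7 to form the active CMG helicase, primase and the replicative polymerases start the strands, and the RFC complex loads the PCNA clamp that holds the polymerases on DNA. Many of these genes are transcribed together at the G1/S transition under E2F transcription factors, which the retinoblastoma proteins hold back until cyclin-dependent kinases release them. In the thymus, most DNA replication takes place in late double-negative and early double-positive cells that proliferate after beta-selection, and most of the double-positive cells that follow are resting. In a bulk sample of thymus, fewer cycling cells and less RNA per cycling cell cannot be told apart.

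Promoters of 35 of the 43 genes were found among the RefSeq promoter sequences of build GRCm38.p6, each from 250 bases before to 50 bases after the gene's start. These windows were searched on both strands for 4 E2F words (TTTCGCGC, TTTGGCGC, TTTCCCGC and TTTGCCGC), for the CCAAT box and for the CHR word TTTGAA. At least 1 E2F word was present in 12 of the 35 (34.3%), against 2.61% of the 27025 genes with a promoter sequence. TTTCGCGC was present in 6 of the 35 against 0.374% of all genes, and TTTGCCGC in 0. CCAAT was present in 20 of the 35 (57.1%) against 41.1%, and TTTGAA in 4 of the 35 (11.4%) against 20.2%. The stretches below show promoters that hold E2F words, those of Mcm6, Mcm5, Cdc6 and Pola1, and 1 with a CCAAT box and no E2F word, that of Pcna. They are written 5′ to 3′ on the strand of the gene, with E2F words, CCAAT boxes and their reverse complements in capitals.
Mcm6, chr1:128359705-128359855, minus strand: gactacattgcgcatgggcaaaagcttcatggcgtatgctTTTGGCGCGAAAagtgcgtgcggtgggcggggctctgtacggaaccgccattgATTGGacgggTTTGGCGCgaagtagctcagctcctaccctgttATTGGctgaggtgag
Mcm5, chr8:75109316-75109407, plus strand: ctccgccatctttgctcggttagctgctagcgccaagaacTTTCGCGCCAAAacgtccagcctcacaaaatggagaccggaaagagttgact
Cdc6, chr11:98907973-98908060, plus strand: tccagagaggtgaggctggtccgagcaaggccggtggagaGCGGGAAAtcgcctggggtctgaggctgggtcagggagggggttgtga
Pola1, chrX:93632246-93632333, minus strand: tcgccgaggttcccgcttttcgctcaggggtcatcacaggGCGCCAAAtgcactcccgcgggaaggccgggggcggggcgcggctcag
Pcna, chr2:132253223-132253307, minus strand: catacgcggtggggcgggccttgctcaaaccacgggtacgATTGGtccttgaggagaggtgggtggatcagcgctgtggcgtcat
In the longer runs of capitals of Mcm6 and Mcm5, 2 E2F words on opposite strands overlap. A match of letters is a description of the window and says nothing about binding in these cells.

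The libraries held 17669715 to 80207003 counts, and the lowest count of any of the 43 genes in any mouse was 245. Zmat3 was at 9.81 to 27.4 CPM (counts relative to the scaled library total) in wt mice, 5.33 to 6.91 CPM in Zmat3-/- mice and 7.504 to 8.13 CPM in TKO mice, with no overlap between wt and either knockout group. Bbc3 was at 17.0 to 19.8 CPM in wt, 15.3 to 19.98 CPM in Zmat3-/- and 11.9 to 15.8 CPM in TKO mice, so that TKO and Zmat3-/- mice overlapped. Cdkn1a was at 3.58 to 10.2 CPM in wt, 4.81 to 8.61 CPM in Zmat3-/- and 2.26 to 3.55 CPM in TKO mice, and the highest TKO and lowest wt values were close. Counts are summed over the whole gene, so they do not show whether reads came from the deleted part. Mitochondrial counts made up 4.25 to 6.31% of wt, 6.54 to 14.6% of Zmat3-/- and 3.86 to 9.29% of TKO libraries. Xist, which only female cells express, ranged from 501 to 1498 CPM in 5 mice, which were the mice numbered 1 and 2 of the wt and Zmat3-/- groups and TKO mouse 1, and was at most 2.60 CPM in the other 6.

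Wt mice 1 and 2 stood apart from the other 9 libraries in how level related to transcript length. Across 11961 genes with a coding transcript, the deviation of a gene's log2 CPM from its mean over the 11 mice had a Spearman's rho with transcript length of -0.71 in wt mouse 1 and -0.69 in wt mouse 2. In the other 9 libraries the rho lay between 0.08 and 0.50. The 43 genes showed the same split, with -0.54 in both wt mouse 1 and wt mouse 2, and -0.15 to 0.56 elsewhere. These are descriptions across genes of 1 library, which share that library's RNA, depth and base composition. Each comparison with wt is also given without these 2 mice, and it then rests on wt mice 3 and 4. These had the highest share of rRNA counts, at 1.88% and 2.07% against 0.425 to 0.997% in the other 9 libraries, and the part of rRNA in the results was not tested. No wt mouse with high Xist is left in these fits, with 1.73 and 2.60 CPM in wt mice 3 and 4. Xist was at 1098 and 1352 CPM in Zmat3-/- mice 1 and 2 and 1498 CPM in TKO mouse 1. In the other knockout mice it was at most 2.21 CPM.

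**Figure D1:**
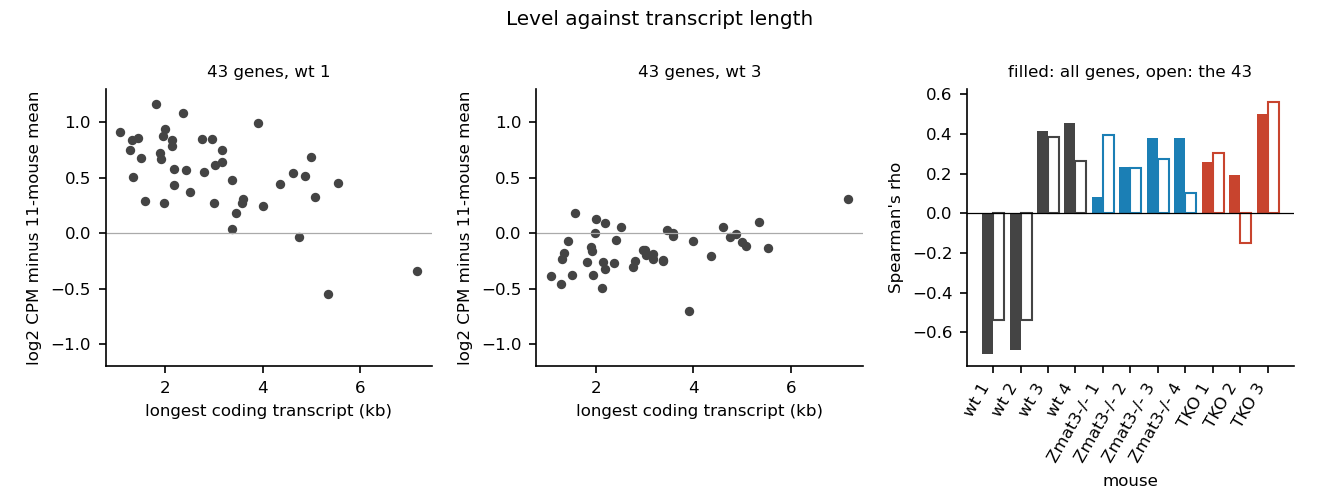
Left and middle, log2 CPM minus the 11-mouse mean of the 43 genes against the length of their longest coding transcript in wt mice 1 and 3. Right, Spearman's rho of that deviation with length in each mouse for 11961 genes (filled bars) and for the 43 genes (open bars); rho was -0.71 and -0.69 over all genes in wt mice 1 and 2 and positive in the other 9 mice.

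All 43 genes were expressed in every mouse, from 13.9 CPM (Ccne1 in Zmat3-/- mouse 4) to 685 CPM (Pcna in wt mouse 1). Per kilobase of exon, mean levels over the 11 mice ranged 48.3-fold around a median of 15.9 CPM per kb. Pcna was highest at 182 CPM per kb, followed by Rrm2 at 83.8, Uhrf1 at 63.1 and Mcm7 at 57.0 CPM per kb. Ung, the uracil-DNA glycosylase, was lowest at 3.76 CPM per kb.

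The clearest pattern in these genes lay between wt mice and not between genotypes. Wt mouse 1 had the highest level of all 11 mice for 36 of the 43 genes, and TKO mouse 3 for the other 7. Its median ratio to the 11-mouse mean was 1.46, against 0.83 to 1.10 in the other 10 mice. The highest wt mouse was a median of 1.74-fold above the lowest, against 1.301-fold among Zmat3-/- and 1.33-fold among TKO mice. The wt range exceeded 2-fold for 14 genes and reached 3.24-fold for Gins2, whereas no gene had a range over 2-fold in the other 2 genotypes. For 13 genes the wt mice lay on both sides of all 7 knockout mice.

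**Figure D2:**
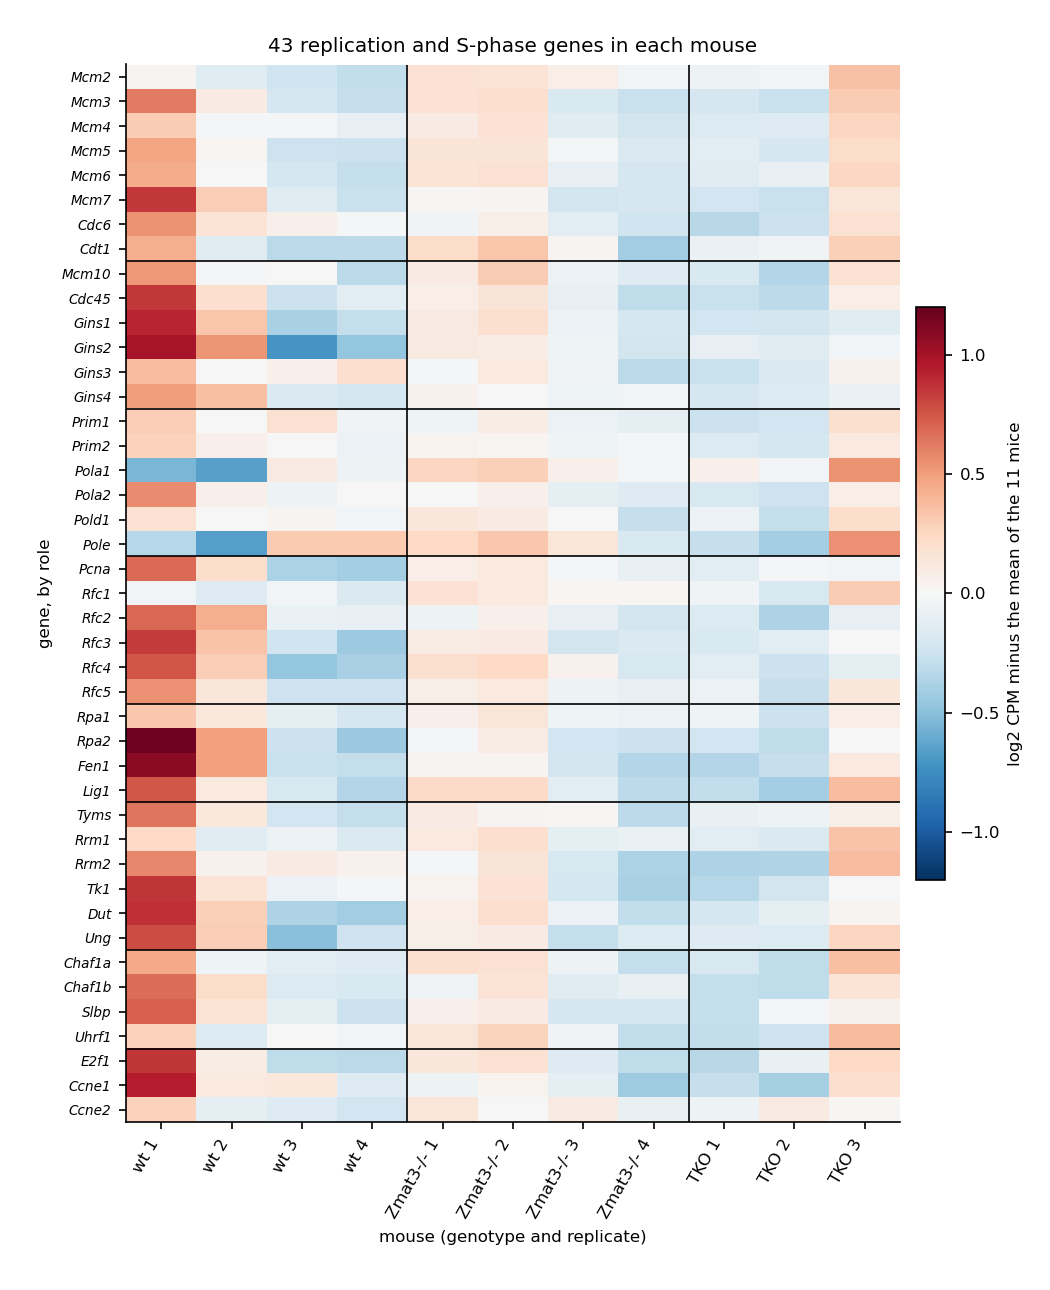
Log2 CPM of each of the 43 genes (rows, grouped by role) minus its mean over the 11 mice (columns), with red above and blue below that mean. Wt mouse 1 is highest in 36 of 43 rows, and Pola1 and Pole are the 2 rows in which wt mice 1 and 2 are clearly low.

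The mean of centred log2 CPM over the 43 genes was 0.54, 0.09, -0.15 and -0.19 in wt mice 1 to 4, 0.09, 0.14, -0.08 and -0.21 in Zmat3-/- mice 1 to 4, and -0.19, -0.21 and 0.16 in TKO mice 1 to 3. The genotypes overlapped, with a mean ± SD of 0.07 ± 0.34 (n = 4) in wt, -0.01 ± 0.16 (n = 4) in Zmat3-/- and -0.08 ± 0.21 (n = 3) in TKO mice. Among the 5 mice with high Xist, the wt mice were at 0.54 and 0.09, the Zmat3-/- mice at 0.09 and 0.14 and the TKO mouse at -0.19. Among the other mice, the wt values were -0.15 and -0.19, the Zmat3-/- values -0.08 and -0.21, and the TKO values -0.21 and 0.16. For 30 of the 43 genes, the gap between the highest and lowest genotype mean was smaller than the SD within genotypes, whose median over the genes was 0.29 on the log2 scale.

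Genes of mitosis and G2/M, which mark cells later in the cycle, overlapped between genotypes too. Their list of 20 was at 0.43, -0.19, 0.05 and -0.03 in wt mice 1 to 4, at 0.09, 0.24, -0.06 and -0.35 in Zmat3-/- mice 1 to 4, and at -0.33, -0.24 and 0.39 in TKO mice 1 to 3. Wt mouse 1 and TKO mouse 3 were the highest on this list. Wt mouse 2, above the mean on the replication list, was below it here.

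**Figure D3:**
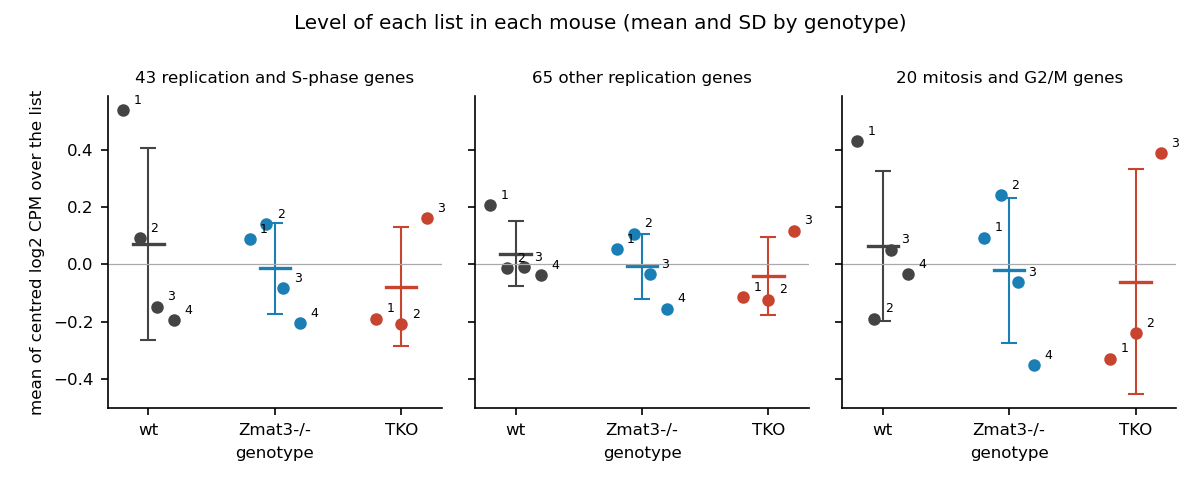
Mean of centred log2 CPM over the 43 genes, 65 other replication genes and 20 mitosis and G2/M genes, with 1 point per mouse (labelled by replicate), a bar at the mean and whiskers of 1 SD. The genotypes overlap in each panel, and wt mouse 1 is the highest point in all 3.

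Of the cell type marker lists, the mature single-positive and erythroid lists set wt mice 1 and 2 apart in both sum and mean. The 10 mature single-positive thymocyte markers summed to 935 and 925 CPM against 723 to 809 CPM in the other 9 mice. Their mean of centred log2 CPM was 0.31 in both against -0.24 to 0.04. The double-positive, early double-negative, B cell, and thymic epithelial and fibroblast lists set both mice apart in their sums. Their means did not set both apart. The 10 double-positive markers summed to 9050 and 9981 CPM against 10459 to 13468 CPM. Rag1, a recombinase gene, was at 1592 and 2209 CPM in wt mice 1 and 2 against 3839 to 5607 CPM elsewhere, while Cd8b1 and Dntt were not low there, and the list mean was -0.20 and -0.06 against -0.14 to 0.15. The 10 early double-negative markers summed to 278 and 239 CPM against 371 to 560 CPM, carried by Notch1 and Notch3. Ptcra, Hes1 and Dtx1 were highest of all 11 mice in wt mouse 1, and the list mean was -0.06 and -0.12 in wt mice 1 and 2, within the range of -0.19 to 0.24 of the other mice. The 7 B cell markers summed to 732 and 848 CPM against 476 to 547 CPM, most of it from the immunoglobulin heavy chain gene Ighm. Cd79a and Cd79b were also highest in these 2 mice, and the list mean was 0.09 and 0.62 against -0.53 to 0.13. The 12 thymic epithelial and fibroblast markers summed to 306 and 286 CPM against 192 to 251 CPM. Their list mean was 0.15 and 0.24, within the range of -1.09 to 0.50 of the other mice, and the genotypes overlapped. Macrophage and myeloid markers (12 genes) ranged from 162 to 466 CPM and overlapped between genotypes. Erythroid markers summed to 1072 and 867 CPM in wt mice 1 and 2 against 1151 to 8694 CPM in the other 9 mice. Their list mean was -1.22 and -1.34 against -0.85 to 1.66. They varied most of the lists, and both ends of the sums were wt mice (2 and 3). At most 2 genes of any list were under 1 CPM in all mice of a genotype. The part of these lists, of Xist and of transcript length in the results was not tested.

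Zmat3-/- thymocytes showed no replication gene that passed the test against wt. Of the 43 genes, 10 had a higher and 33 a lower estimate in Zmat3-/- mice, with log2 fold changes from -0.49 (Fen1) to 0.41 (Pola1) and a median of -0.14. The median over all 13488 genes tested was -0.03, and 7174 of them had a lower estimate. None of the 43 had an adjusted p under 0.05 in edgeR's quasi-likelihood test or in DESeq2, against 0.764% of all genes (103) in edgeR and 8.04% in DESeq2. With a fold threshold of 1.5 on the log2 scale added, the share over all genes was 0.319%. At an unadjusted p under 0.05 there was 1 gene, Mcm2, against 16.1% of all genes. When the replicate number entered as a block, 12 of all genes passed, and again none of the 43. Scaled to library totals alone, the median over all genes moved to -0.14 and that of the 43 to -0.24, and 38 were lower.

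For 40 of the 43 genes the 95% interval of the fold change lay within 1 on the log2 scale, that is within a doubling or halving. The intervals of Gins2, Rpa2 and Fen1 reached below that. The Zmat3-/- mice were all above the wt mice for 1 gene, Rfc1 (2.33% of the 43, against 7.04% of all genes), and all below them for none (against 6.91%).

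Leaving out mice changed the direction of this comparison. Without wt mouse 1, 30 of the 43 genes had a higher estimate in Zmat3-/- mice and the median was 0.09. Without wt mice 1 and 2, 35 were higher, the median was 0.18, and 7 passed with an adjusted p under 0.05, all of them higher: Mcm2, Mcm5, Gins2, Pcna, Rfc4, Rfc5 and Dut. In that fit 33.0% of all genes passed, so the share of 16.3% among the 43 was below the background. With 1 surrogate variable in the fit, 6 of the 43 passed (Mcm2, Pola1 and Rfc1 higher, and Cdc6, Rfc2 and Fen1 lower) against 37.8% of all genes. With the transcript length trend of each mouse taken out, none passed and the median was -0.07.

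TKO thymocytes likewise had no replication gene that passed against wt. The estimate was higher in TKO mice for 7 genes and lower for 36, from -0.58 (Rpa2) to 0.45 (Pola1), with a median of -0.21 against -0.04 over the 13260 genes tested. None had an adjusted p under 0.05 in edgeR or DESeq2, while 0.294% of all genes (39) did in edgeR, 0.241% with the fold threshold added, and 2.87% in DESeq2. None had an unadjusted p under 0.05, against 10.3% of all genes. This comparison shares its wt mice with the one above. Intervals lay within 1 on the log2 scale for 31 of the 43 genes and reached as low as -1.46, for Rpa2. All TKO mice were below all wt mice for 1 gene, Rfc2 (2.33% of the 43, against 7.02% of all genes), and above them for none (against 6.78%).

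Without wt mouse 1, the median against TKO was -0.03, and 19 of the 43 estimates were higher. Without wt mice 1 and 2, 31 were higher, the median was 0.12 and 1 gene passed, Gins2, which was higher in TKO mice (2.33% of the 43, against 8.15% of all genes). With 1 surrogate variable, Pola1 (higher) and Rfc2 (lower) passed, 4.65% of the 43 against 17.9% of all genes.

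TKO and Zmat3-/- thymocytes, which differ by the loss of Puma and p21, gave the narrowest estimates. Of the 43 genes, 2 had a higher estimate in TKO mice (Pola1 and Ung) and 41 a lower one, from -0.26 (Rfc4) to 0.04 (Pola1). The median was -0.08, against -0.01 over the 13124 genes tested. No gene of the 43 had an adjusted p under 0.05 in edgeR or DESeq2, against 0.221% of all genes (29) in edgeR, 0.122% with the fold threshold added, and 0.556% in DESeq2. Rfc4 had an unadjusted p of 0.0337, and 4.5% of all genes had one under 0.05. The median SE was 0.117, against 0.186 in Zmat3-/- against wt and 0.226 in TKO against wt. Every 95% interval lay between -0.59 and 0.38, so that a change of 1 on the log2 scale was outside the interval of each of the 43 genes. The TKO mice were all below the Zmat3-/- mice for Gins4 (2.33% of the 43, against 2.44% of all genes) and all above for none (against 3.21%).

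How many estimates were lower depended on the mice included and on the scaling. Without TKO mouse 3 the estimate was lower in TKO mice for all 43 genes, with a median of -0.18. Without TKO mouse 2, 23 were higher and the median was 0.01. Without TKO mouse 1, 19 were higher, and without Zmat3-/- mouse 1 or 2, 18 and 17. Scaled to library totals alone, 21 were higher, with a median of -0.01 and a shift of the median over all genes to 0.06.

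**Figure D4:**
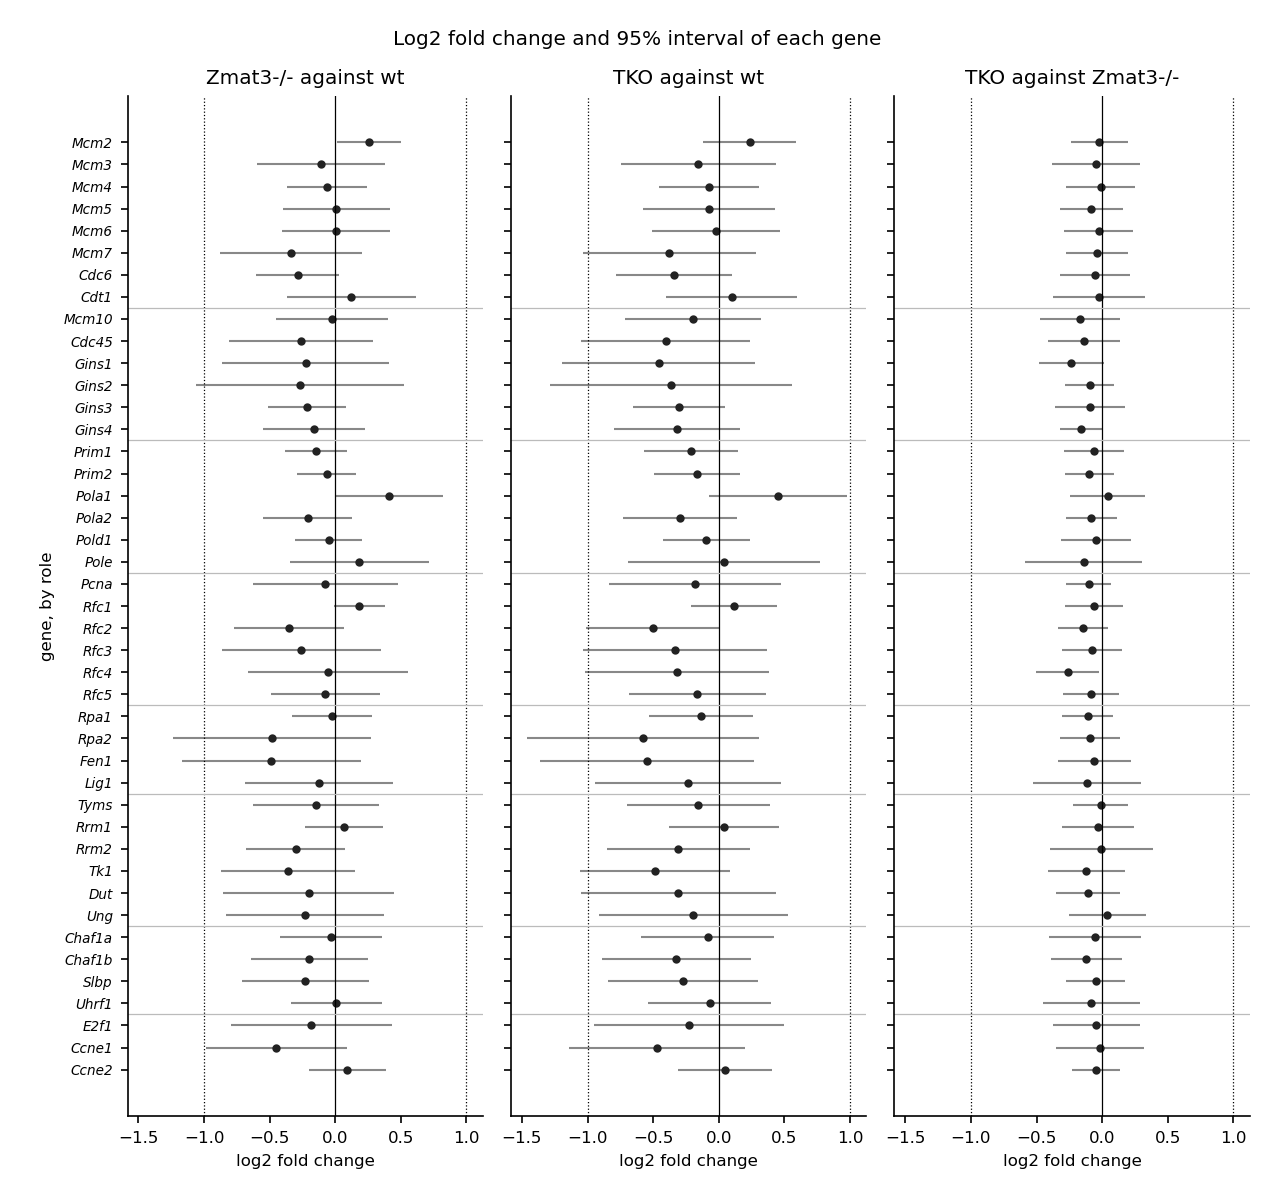
Log2 fold change (points) and 95% interval from edgeR (lines) of the 43 genes in the 3 comparisons, grouped by role, with dotted lines at -1 and 1. Intervals are narrowest for TKO against Zmat3-/-, where all lie between -0.59 and 0.38.

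The licensing group comprised Mcm2 to Mcm7, the 6 subunits of the replicative helicase, and the loading factors Cdc6 and Cdt1. Mcm2 read 174, 153, 143 and 138 CPM in wt mice 1 to 4, 191, 190, 179 and 165 CPM in Zmat3-/- mice 1 to 4, and 162, 166 and 216 CPM in TKO mice 1 to 3. Zmat3-/- mice 1 to 3 were above every wt mouse, and Zmat3-/- mouse 4 was below wt mouse 1. Its log2 fold change was 0.26 (SE 0.106, adjusted p = 0.285) in Zmat3-/- against wt and 0.24 (SE 0.153, adjusted p = 0.606) in TKO against wt. It was the smallest p of the 43 genes in the first comparison.

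The ATPase Cdc6, which opens the way for helicase loading, had most of its higher values in wt mice. It read 58.1, 44.7, 41.5 and 39.5 CPM in wt, 38.7, 41.8, 36.2 and 33.8 CPM in Zmat3-/- and 31.7, 33.3 and 45.2 CPM in TKO mice. The groups overlapped, with a log2 fold change of -0.29 (SE 0.139, adjusted p = 0.354) in Zmat3-/- and -0.34 (SE 0.190, adjusted p = 0.571) in TKO mice against wt. Mcm7 was the most abundant of the group per length and read 441, 301, 221 and 204 CPM in wt mice, 247, 251, 211 and 213 CPM in Zmat3-/- mice and 209, 204 and 271 CPM in TKO mice. Wt mouse 1 was 2.16 times wt mouse 4 for Mcm7, a gap wider than any between the knockout mice. Mcm5 read 234, 171, 142 and 141 CPM in wt mice, 187, 188, 166 and 149 CPM in Zmat3-/- mice and 154, 146 and 196 CPM in TKO mice. Both knockout groups lay inside the wt range, and the log2 fold change of TKO against Zmat3-/- was -0.08 (SE 0.109, adjusted p = 0.983). Over the 8 genes the median log2 fold change was -0.03 in Zmat3-/- and -0.07 in TKO mice against wt, and -0.03 in TKO against Zmat3-/- mice.

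The helicase activation group held Cdc45, the 4 GINS subunits and Mcm10, which helps the loaded helicase to start unwinding. Gins2 showed the widest wt range of all 43 genes, at 185, 134, 57.1 and 67.4 CPM in mice 1 to 4. The Zmat3-/- mice, at 99.9, 98.7, 90.0 and 79.8 CPM, and the TKO mice, at 87.04, 83.9 and 90.9 CPM, fell between wt mouse 2 and wt mouse 4. The log2 fold change against wt was -0.27 (SE 0.348, adjusted p = 0.718) in Zmat3-/- and -0.37 (SE 0.399, adjusted p = 0.732) in TKO mice, and the sign of both turned without wt mice 1 and 2 (0.57 and 0.48).

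Gins4 was the gene for which the TKO mice (26.2, 27.0 and 28.5 CPM) were all below the Zmat3-/- mice (31.2, 30.1, 29.2 and 29.5 CPM). The log2 fold change was -0.16 (SE 0.0725, adjusted p = 0.983), and the wt mice, at 42.8, 38.7, 26.7 and 26.1 CPM, spanned both groups. Gins3 read 23.4, 18.1, 18.8 and 20.8 CPM in wt, 17.9, 19.6, 17.6 and 14.5 CPM in Zmat3-/- and 14.98, 16.0 and 18.7 CPM in TKO mice. Its ranges overlapped, and its log2 fold change against wt was -0.22 (SE 0.131, adjusted p = 0.452) in Zmat3-/- and -0.31 (SE 0.152, adjusted p = 0.531) in TKO mice. All 6 genes of the group had a lower estimate in each of the 3 comparisons, with medians of -0.22, -0.34 and -0.15.

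In the primase and polymerase group, Pola1 and Pole were low in wt mice 1 and 2, while wt mouse 1 was the highest wt mouse for the other 4 genes, as in most of the list. Pola1, the catalytic subunit of the polymerase that extends primers, read 37.7, 35.1, 59.2 and 52.7 CPM in wt mice 1 to 4, 65.9, 67.3, 57.4 and 54.2 CPM in Zmat3-/- mice 1 to 4, and 57.4, 53.9 and 80.0 CPM in TKO mice 1 to 3. Wt mice 1 and 2 were the 2 lowest of the 11, and wt mice 3 and 4 were within the range of the knockout mice or just under it. The log2 fold change was 0.41 (SE 0.180, adjusted p = 0.310) in Zmat3-/- and 0.45 (SE 0.226, adjusted p = 0.532) in TKO mice against wt, the highest of the 43 genes in both. Pole, the catalytic subunit of the leading-strand polymerase, also read low in wt mice 1 and 2, with 38.7 and 31.0 CPM against 60.8 and 60.7 CPM in wt mice 3 and 4. Pola1 and Pole have coding transcripts of 5346 and 7163 bases, among the 3 longest of the list, whose shortest is Gins1 at 1087 bases. Chaf1a, the other of the 3 at 5535 bases, was highest of all 11 mice in wt mouse 1, as was Rpa1 at 5077 bases.

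Prim2, the large primase subunit, stood at 40.3, 34.7, 33.3 and 31.8 CPM in wt, 34.4, 34.0, 32.3 and 32.9 CPM in Zmat3-/- and 29.9, 28.8 and 36.1 CPM in TKO mice. The log2 fold change of TKO against Zmat3-/- was -0.10 (SE 0.0849, adjusted p = 0.983), with TKO mice on both sides of the Zmat3-/- mice. Pold1, the catalytic subunit of the lagging-strand polymerase and the highest of the group per length, was among the steadiest genes. It read 87.1, 76.8, 78.3 and 74.9 CPM in wt, 84.5, 82.1, 76.4 and 63.3 CPM in Zmat3-/- and 72.9, 63.1 and 89.0 CPM in TKO mice, and its log2 fold changes against wt were -0.05 (SE 0.112, adjusted p = 0.847) and -0.10 (SE 0.143, adjusted p = 0.798).

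Of the clamp Pcna and the 5 RFC subunits of its loader, none passed edgeR's test with all mice and no further terms in the fit. With 1 surrogate variable Rfc1 and Rfc2 passed. Without wt mice 1 and 2, Pcna, Rfc4 and Rfc5 passed in Zmat3-/- against wt, beside 33.0% of all genes. Pcna read 685, 495, 329 and 322 CPM in wt mice 1 to 4, 451, 464, 421 and 401 CPM in Zmat3-/- mice 1 to 4, and 392, 420 and 418 CPM in TKO mice 1 to 3. All 7 knockout mice were below wt mice 1 and 2 and above wt mice 3 and 4. The log2 fold change against wt was -0.07 (SE 0.241, adjusted p = 0.891) in Zmat3-/- and -0.18 (SE 0.283, adjusted p = 0.809) in TKO mice. Without wt mice 1 and 2 it was 0.41 (adjusted p = 0.00288) and 0.32.

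Rfc1, the large subunit of the loader, was the gene for which every Zmat3-/- mouse (127, 121, 114 and 114 CPM) was above every wt mouse (110, 101, 110 and 99.7 CPM). TKO mice, at 109, 98.02 and 138 CPM, overlapped with both, and the log2 fold change of Zmat3-/- against wt was 0.18 (SE 0.0855, adjusted p = 0.339). Rfc2, a small subunit, read 105, 87.9, 61.5 and 60.7 CPM in wt, 62.4, 67.8, 60.5 and 55.8 CPM in Zmat3-/- and 57.9, 50.4 and 60.5 CPM in TKO mice. Every TKO mouse was below every wt mouse, but the highest TKO value and the lowest wt value were close. In TKO against wt the log2 fold change was -0.50 (SE 0.221, adjusted p = 0.491), with an interval from -1.01 to 0.01. Rfc4, another small subunit, gave the smallest p in TKO against Zmat3-/-, with 29.6, 27.2 and 30.1 CPM in TKO and 37.0, 38.4, 33.7 and 28.4 CPM in Zmat3-/- mice. Zmat3-/- mouse 4 lay among the TKO mice, and the log2 fold change was -0.26 (SE 0.107, adjusted p = 0.983). Its wt values, 54.7, 39.8, 23.6 and 24.7 CPM, ran from the lowest to the highest of all 11 mice.

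**Figure D5:**
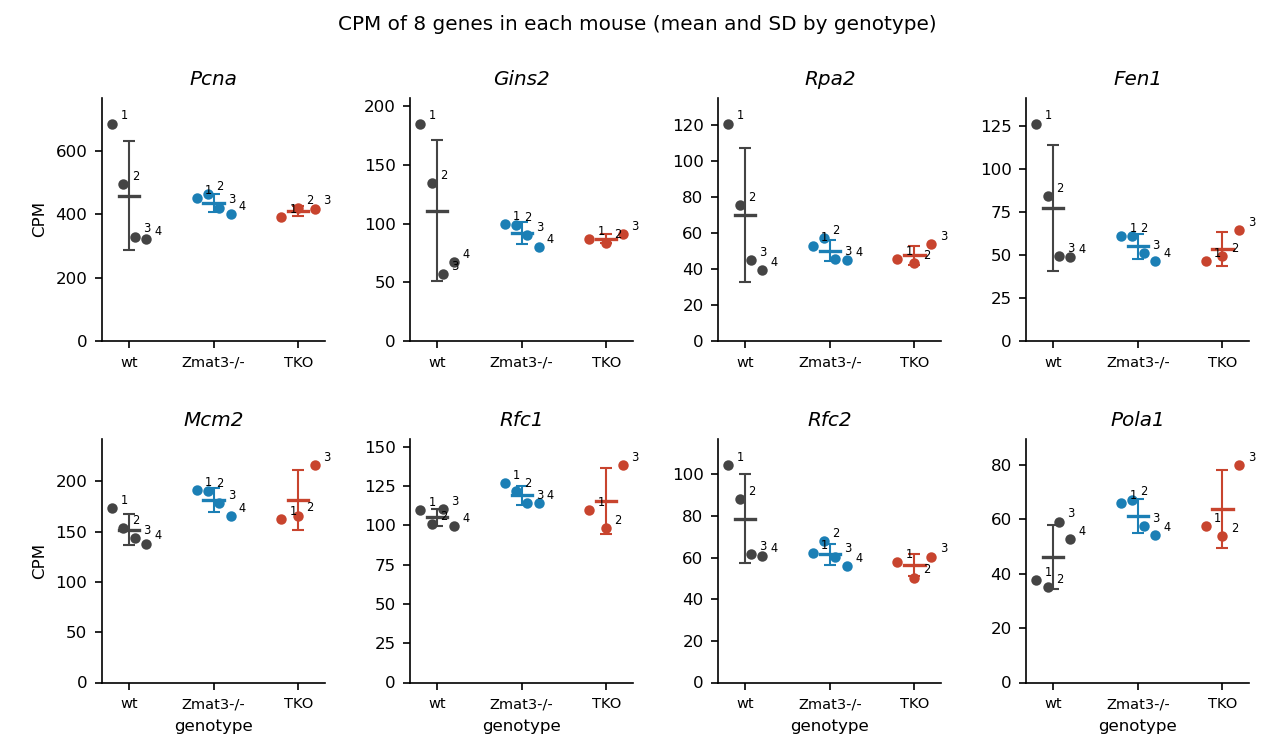
CPM of 8 genes in each mouse by genotype, with 1 point per mouse (labelled by replicate), a bar at the mean and whiskers of 1 SD; axes start at 0. For Pcna, Gins2, Rpa2, Fen1 and Rfc2 wt mice 1 and 2 are high, for Pola1 they are the lowest, and Mcm2 and Rfc1 vary less.

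Fen1, the nuclease that trims Okazaki fragments, had the lowest estimate of the 43 genes in Zmat3-/- against wt. It read 126, 84.1, 49.6 and 48.9 CPM in wt mice 1 to 4, 60.9, 61.2, 51.3 and 46.7 CPM in Zmat3-/- mice 1 to 4, and 46.6, 49.4 and 64.5 CPM in TKO mice 1 to 3. Only wt mice 1 and 2 were above the knockout mice, and the log2 fold change against wt was -0.49 (SE 0.30, adjusted p = 0.457) in Zmat3-/- and -0.55 (SE 0.351, adjusted p = 0.604) in TKO mice. Without wt mice 1 and 2 both signs turned (0.16 and 0.11). Rpa2, the middle subunit of the single-strand binding protein RPA, had the same order of wt mice, with 121, 75.6, 45.0 and 39.5 CPM, against 44.9 to 57.3 CPM in Zmat3-/- and 43.4 to 53.7 CPM in TKO mice. Rpa1, the large subunit, read 240, 209, 177 and 167 CPM in wt, 200, 211, 185 and 183 CPM in Zmat3-/- and 185, 161 and 202 CPM in TKO mice. Rpa1 had a log2 fold change in TKO against Zmat3-/- mice of -0.11 (SE 0.0861, adjusted p = 0.983), and the groups overlapped.

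Nucleotide supply was represented by both ribonucleotide reductase genes, Tk1, Tyms, Dut and Ung. Rrm2, the small reductase subunit that limits deoxynucleotide synthesis in S phase, read 339, 236, 243 and 236 CPM in wt, 225, 253, 200 and 175 CPM in Zmat3-/- and 176, 177 and 294 CPM in TKO mice. Wt mouse 1 was far from the other 3 wt mice, which were close to each other, and the log2 fold change of Zmat3-/- against wt was -0.30 (SE 0.167, adjusted p = 0.410). Thymidine kinase, Tk1, read 75.2, 46.5, 39.7 and 41.1 CPM in wt, 42.7, 46.8, 36.0 and 31.8 CPM in Zmat3-/- and 32.7, 35.6 and 41.8 CPM in TKO mice. Its log2 fold change of TKO against wt was -0.48 (SE 0.247, adjusted p = 0.538), with overlapping ranges. Dut, which removes dUTP, read 233, 155, 97.8 and 95.2 CPM in wt, 134, 146, 121 and 103 CPM in Zmat3-/- and 109, 117 and 130 CPM in TKO mice. All 7 knockout mice lay between wt mice 2 and 3, and the log2 fold change of TKO against Zmat3-/- was -0.11 (SE 0.109, adjusted p = 0.983).

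Among the genes of chromatin assembly, Slbp binds the stem-loop of histone mRNAs, Chaf1a and Chaf1b encode subunits of the CAF-1 histone chaperone, and Uhrf1 directs maintenance DNA methylation. Slbp read 221, 150, 123 and 112 CPM in wt, 140, 144, 117 and 117 CPM in Zmat3-/- and 110, 132 and 139 CPM in TKO mice, with a log2 fold change of Zmat3-/- against wt of -0.23 (SE 0.212, adjusted p = 0.617). Chaf1b read 49.1, 35.9, 27.6 and 27.2 CPM in wt, 30.0, 34.7, 27.9 and 29.0 CPM in Zmat3-/- and 25.4, 25.0 and 34.5 CPM in TKO mice. Both overlapped between genotypes, and the log2 fold change of Chaf1b in TKO mice was -0.32 (SE 0.244, adjusted p = 0.643) against wt and -0.12 (SE 0.121, adjusted p = 0.983) against Zmat3-/-. Uhrf1, the most abundant of the group per length, read 321, 238, 265 and 260 CPM in wt, 294, 320, 258 and 217 CPM in Zmat3-/- and 216, 224 and 344 CPM in TKO mice, with its highest value in TKO mouse 3.

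The G1/S regulators were E2f1 and both E-type cyclins, the partners of CDK2 that p21 inhibits. Ccne1 read 35.9, 20.3, 20.5 and 16.9 CPM in wt, 18.0, 19.2, 17.3 and 13.9 CPM in Zmat3-/- and 15.5, 14.2 and 21.6 CPM in TKO mice. Wt mouse 1 stood above the other 10 mice, and the log2 fold change against wt was -0.45 (SE 0.236, adjusted p = 0.391) in Zmat3-/- and -0.47 (SE 0.288, adjusted p = 0.598) in TKO mice. Ccne2 read 47.1, 35.9, 35.1 and 33.2 CPM in wt, 43.2, 39.2, 41.9 and 36.6 CPM in Zmat3-/- and 37.4, 42.0 and 39.3 CPM in TKO mice. Its 3 log2 fold changes were all small, and that of TKO against Zmat3-/- was -0.05 (SE 0.0817, adjusted p = 0.983).

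A further 65 replication genes, in 4 lists of origin recognition and firing, polymerase and fork factors, nucleotide and chromatin supply, and G1/S regulators, gave a count of 0 with an adjusted p under 0.05 in edgeR in each comparison. In DESeq2 the count was 1 in Zmat3-/- against wt and 1 in TKO against wt, both times Orc2, and 0 in TKO against Zmat3-/-, where 8.04%, 2.87% and 0.556% of all genes passed. At an unadjusted p under 0.05, 4 were higher and 2 lower in Zmat3-/- against wt, 1 was higher in TKO against wt, and 1 was higher and 4 were lower in TKO against Zmat3-/-, beside 16.1%, 10.3% and 4.5% of all genes. Orc2, a subunit of the origin recognition complex, had the smallest p against wt in both. It read 33.0, 37.7, 36.7 and 38.4 CPM in wt, 46.8, 47.2, 47.7 and 46.7 CPM in Zmat3-/- and 48.8, 46.4 and 49.5 CPM in TKO mice. All 7 knockout mice were above all wt mice, wt mice 3 and 4 included, but the adjusted p was 0.0903 in Zmat3-/- (log2 fold change 0.37, SE 0.0829) and 0.342 in TKO mice (0.39, SE 0.112) in edgeR. DESeq2 gave an adjusted p of 8.0e-05 and 0.0126. With all 3 genotypes in 1 edgeR fit, in which 1.73% and 1.62% of all genes passed against wt, Orc2 passed with 0.04098 and 0.0445. It also passed with 1 surrogate variable (0.00059 and 0.0127) and, in Zmat3-/- mice, with the length trend removed (0.0257, beside 3.91% of all genes), whereas it did not pass in TKO mice in that fit (0.136). The estimate stayed between 0.25 and 0.40 over the alternatives in Zmat3-/- mice and between 0.34 and 0.43 in TKO mice, and without wt mice 1 and 2 it was 0.32 (adjusted p = 0.00498) and 0.35 (adjusted p = 0.0579). The 2 comparisons share their wt mice.

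The chromatin remodeller Hells was next in Zmat3-/- against wt, at 59.8, 50.1, 69.8 and 65.3 CPM in wt and 85.4, 86.0, 77.1 and 69.5 CPM in Zmat3-/- mice. Zmat3-/- mouse 4 was just under wt mouse 3, and the log2 fold change was 0.38 (SE 0.126, adjusted p = 0.197). Cdc7, the kinase that fires origins, had a log2 fold change of -0.32 (SE 0.142, adjusted p = 0.490) in TKO against wt. In TKO against Zmat3-/- mice, Orc6 was at -0.24 (SE 0.0863) and Rpa3, the small RPA subunit, at -0.30 (SE 0.113), both with an adjusted p of 0.983.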

How the data were processed

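RNA from the thymocytes of 11 mice was sequenced. The authors made libraries with a TruSeq RNA kit, which does not keep strand, so that reads of a gene and its antisense partner cannot be told apart. They ran nf-core/rnaseq with Salmon. The deposited values are estimated counts per gene, all whole numbers and not normalized. The submitters' notes also name bcl2fastq and DESeq2 1.40.0. Names, GRCm38 positions and lengths came from GENCODE M21 (54166 of 54418 genes matched; the study used another release). Exon length is that of all exons merged.

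Genotypes were compared in pairs in edgeR 4.0.16 (R 4.3.3): TMM, quasi-likelihood F-test, two-sided, Benjamini-Hochberg over all genes tested. A gene was tested if at least as many mice as in the smaller group reached 20 counts after scaling to the smallest library. Following the study, 1628 genes did not enter the tests: Xist, genes of chromosome Y, rRNA genes and immunoglobulin genes that are not protein-coding. Its filter on obsolete Entrez IDs was not applied. CPM use TMM factors over 11 mice; log2 levels of lists use a prior count of 2. The SE is the absolute log2 fold change over the square root of F. The study's sex and surrogate terms were alternatives (DESeq2 1.42.0, sva 3.50.0), with the Xist level in place of sex, which the labels do not give. Intervals cover the spread between these mice, and nothing states litter or culture.

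The 43 genes and all lists were chosen with earlier results of these data known. Genes given in full were, in each of 8 role groups, those with the smallest p in each comparison and the highest level per length, 24 genes in all; values of Rpa2 and Pole were added after they were seen. Of other replication genes, the 2 with the smallest p in each comparison are named. Replicate numbers come from the labels. In Zmat3-/- against wt, same-numbered mice deviated together (r = 0.127 to 0.339 over genes), so the replicate block is given. Zmat3-/- mouse 1 correlated better with wt mouse 2 (0.376) and Zmat3-/- mouse 2 with wt mouse 1 (0.182), so the number does not single out pairs. Fits were tested on simulated data. Transcript length is that of the longest coding transcript; its trend was removed by lowess. That fit and the fits without wt mice 1 and 2 were added after seeing the data.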

Additional observations from a re-analysis of the deposited data

Results flagged for a closer look

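Within a group of 4 mice, 4 genes had 1 wt mouse far from the other 3 (the gap over the range was above Dixon's 95% critical value), and in each it was wt mouse 1. Mcm4 was at 173 CPM against 131 to 138 CPM in the other wt mice, and Pola2 at 85.7 CPM against 55.5 to 60.1 CPM. Rrm2 was at 339 CPM against 236 to 243 CPM, and Chaf1a at 74.1 CPM against 48.7 to 52.2 CPM. The 43 genes and their mean level gave 88 groups, and 4 are 4.55% of them, where independent groups would give 1 in 20 by chance. These groups come from the same mice and are not independent, so the share cannot be compared with chance. Wt mouse 1 was the highest wt mouse for 40 of the 43 genes. All 4 lie in the library with a rho of -0.71 between level and transcript length over all genes, and the part of that trend in them was not tested.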

How the results depend on the processing

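Under the alternatives set out at the start, no gene of the 43 had an adjusted p under 0.05, except with 1 surrogate variable: 6 in Zmat3-/- against wt and 2 in TKO against wt. The replicate block gave 0 in each comparison, with medians of -0.10, -0.29 and -0.13. Same-numbered TKO mice had r of 0.0729 to 0.406 with wt and 0.0113 to 0.195 with Zmat3-/- mice, not all over 0.1, so the block is read only in Zmat3-/- against wt. Leaving out each mouse gave 0 such genes each time, and medians of -0.22 to 0.09 in Zmat3-/- against wt, -0.34 to -0.03 in TKO against wt and -0.18 to 0.01 in TKO against Zmat3-/-. Leaving out wt mouse 1 changed the sign of 20 genes in Zmat3-/- and 14 in TKO mice against wt, and library totals alone that of 19 in TKO against Zmat3-/-.

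Chosen after seeing the data, the fit without wt mice 1 and 2 gave 7 and 1 genes, with medians of 0.18 and 0.12. The sign of 27 and 26 genes changed. Counted only where both estimates exceeded their SE or the gene passed in that fit, a criterion also set after seeing the data, it changed for 11 genes in Zmat3-/- against wt, among them Mcm7 (0.12), Gins2 (0.57), Pcna (0.41), Rfc4 (0.51), Fen1 (0.16), Dut (0.39), Chaf1b (0.15) and Slbp (0.14), and for 5 genes in TKO against wt, among them Gins2 (0.48) and Rfc4 (0.25). The cause was not tested. DESeq2 called 1085, 381 and 73 genes in all at an adjusted p under 0.05, where edgeR called 103, 39 and 29. Among the 65 other replication genes, 1 surrogate variable gave 13 and 3 genes against wt (beside 37.8% and 17.9% of all genes) and leaving out wt mice 1 and 2 gave 16 and 1 (beside 33.0% and 8.15%). The counts limit little here, since the lowest was 245.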
